A study of Mus musculus with 6 samples.

Results

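The genes described here encode parts of the centrosome and of the primary cilium in cells of the embryonic mouse neocortex that had been made to express Insm1. They were taken by symbol, under a rule set with earlier results of these data known. The rule names every gene called Cep, Ift or Bbs with a number. It adds a fixed set of centrosome and cilium genes such as Nin, Pcnt, Akna, Cdk5rap2 and Aspm. The rule took 74 of the 22001 genes in the count table, and all 74 had enough counts to be tested, among 13560 tested genes in all. Tctn2, which the rule also names, was not analysed here.

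The libraries came from in utero electroporation, in which current pulses push plasmid DNA, placed in the brain ventricle of an embryo, into the cells that line the ventricle. In the Insm1 group the plasmid encoded Insm1 together with the red fluorescent protein mCherry, and in the control group it encoded mCherry alone, with 3 RNA-seq libraries in each group. Embryos were electroporated at E13.5 and dissected at E14.5, 24 h later, and mCherry-positive neocortical cells were collected by fluorescence-activated sorting. The sources used here do not give the genotype, the strain, the promoter of the plasmids, or whether libraries came from separate litters or pooled embryos. The p-values therefore rest on the spread among these libraries, some of which may be technical. Insm1 itself, a zinc-finger transcription factor, had 1570, 2173 and 1436 CPM (read counts scaled to library size) in the Insm1 libraries, against 222, 331 and 371 CPM in the control libraries. The groups did not overlap, and Insm1 was 5.61-fold higher (edgeR quasi-likelihood test, adjusted p = 0.0122).

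A centrosome is a pair of centrioles inside a matrix, the pericentriolar material, that nucleates microtubules. The older or mother centriole carries distal and subdistal appendages, which tie it to the plasma membrane and anchor microtubules, and in a cell at rest or between divisions it is the base from which the primary cilium grows. Intraflagellar transport carries cargo along the cilium, the transition zone forms the gate at its base, and the BBSome moves membrane proteins in and out. In the developing cortex the apical progenitors, or radial glia, hold their centrosome at the ventricular surface with the primary cilium projecting into the ventricle. Cells that leave the surface must release this attachment. Loss of several of the genes described here causes a small brain in humans.

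Of the 74 genes, 1 passed the test. Nin, a gene of the mother centriole's subdistal appendages, fell with Insm1, no gene rose, and 73 did not pass. A gene was called where the two-sided quasi-likelihood test of edgeR gave a p below 0.05 after Benjamini-Hochberg adjustment over all tested genes. That 1 of 74 is 1.35% of the genes, where 3.35% of all tested genes were called, 2.12% lower and 1.23% higher. The median log2 fold change of the 74 genes, Insm1 over control, was -0.01, and that of all tested genes was also -0.01.

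The intervals of the fold changes depend on both the size and the precision of a change. The median standard error was 0.131 for the 74 genes and 0.136 for all tested genes. In 58 of the 74 genes, or 78.4%, the 95% interval of the log2 fold change lay within 1.5-fold in both directions, against 59.3% of all tested genes. In 71 genes the interval lay within 2-fold, and the 3 others were Nin, Bbs10 and Bbs12. At an unadjusted p below 0.05 there were 9 genes, 12.2% against 17.2% of all tested genes. Of these 3 were higher with Insm1, where the share of all tested genes was 7.56%, and 6 were lower, where it was 9.69%. In 10 of the 74 genes every library of 1 group lay above every library of the other, against 22.2% of all tested genes. Of these 4 were higher with Insm1, where the share of all tested genes was 10.4%, and 6 were lower, where it was 11.8%. Together the 74 genes took between 0.376% and 0.395% of the counts of an Insm1 library and between 0.387% and 0.400% of those of a control library.

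**Figure D1:**
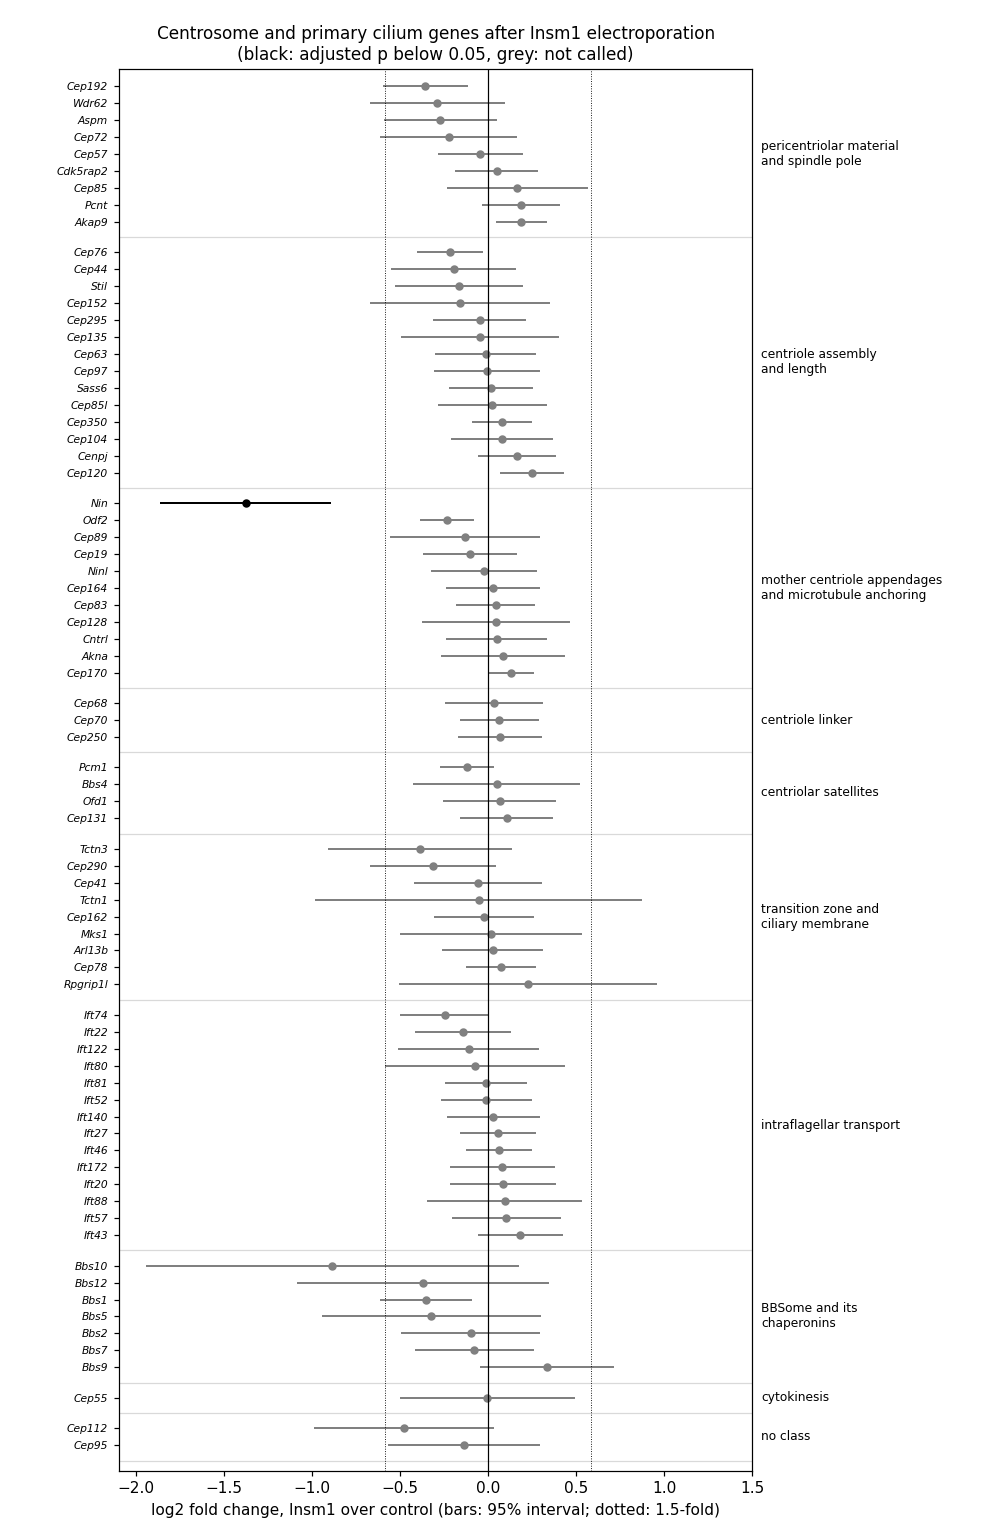
Log2 fold change of each of the 74 genes, Insm1 over control, by class, with its 95% interval; the dotted lines mark 1.5-fold. The 1 called gene, Nin at -1.38, is black and lies left of the others, and 58 intervals stay between the dotted lines.

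The called gene belongs to the class of mother centriole appendages and microtubule anchoring. Nin encodes ninein, a subdistal appendage protein that anchors microtubule minus ends. In mouse radial glia, ninein is known to be needed for the progenitor to keep the older mother centriole when it divides. Nin (ENSMUSG00000021068) is a protein-coding gene on GRCm38 at chromosome 12, 70011435 to 70113717, minus strand, and its exons overlap those of no other gene of the table. It had 18.4, 12.3 and 11.2 CPM in the Insm1 libraries, against 41.3, 27.6 and 39.7 CPM in the control libraries. Every Insm1 library lay below every control library, and the lowest control library, number 2, was still above the highest Insm1 library, number 1. The mean was 13.9 ± 3.88 CPM in the Insm1 libraries and 36.2 ± 7.50 CPM in the control libraries (SD, n = 3 each), 2.60-fold lower with Insm1. On the log2 scale this was -1.38 (standard error 0.21, 95% interval from -1.86 to -0.90, adjusted p = 0.0106 in the edgeR quasi-likelihood test).

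The Nin call was kept in 5 of the 6 fits that leave out 1 library, with log2 fold changes from -1.63 to -1.24. It was lost without control library 3, where edgeR's adjusted p was 0.0546, and without control library 2 it was 0.00319. It was also lost when limma was run on the deposited TPM values, with a log2 fold change of -0.94 and an adjusted p of 0.0699 at log2(TPM + 1), and -1.38 and 0.0647 at log2(TPM + 0.1). These fits called 60 and 64 genes over the whole table.

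Sequence before a RefSeq start of Nin is shown because Nin is the called gene. RefSeq (GRCm38.p6) gives Nin 3 promoter windows. The 250 bases before 1 of these starts lie at chr12:70112036-70112285, minus strand. They begin 1432 bases inside the gene as GENCODE annotates it and hold no GENCODE exon base, so they are upstream of that RefSeq start and intronic to the longest annotated span. Capitals mark TTCAAA, the reverse complement of the cell cycle homology region core TTTGAA, and GGGGGC, the core of the published Insm1 binding motif:

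Nin, before 1 RefSeq start: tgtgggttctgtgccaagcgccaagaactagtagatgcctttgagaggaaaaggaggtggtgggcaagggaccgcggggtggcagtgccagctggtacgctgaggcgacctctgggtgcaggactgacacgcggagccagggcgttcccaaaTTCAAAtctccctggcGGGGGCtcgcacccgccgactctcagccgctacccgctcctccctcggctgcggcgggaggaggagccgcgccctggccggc

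Of the Nin windows of this length, only the printed window holds both motifs. Another Nin window holds GGGGGC without TTTGAA, and the remaining window holds neither. Which RefSeq start of Nin these cells use was not tested. Each of these short motifs is common. On either strand and in a window of 300 bases, GGGGGC was found in 44.6% of the 65 genes of the set that have a promoter in the RefSeq table and in 30.4% of all 27025 genes of that table. TTTGAA was found in 23.1% of the set and in 20.2% of all genes. A match is a description of the letters, and binding was not measured.

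The other 10 genes of the appendage class did not pass the test. Odf2, a scaffold on which both kinds of appendage are built, came nearest. It had 145, 137 and 128 CPM in the Insm1 libraries, against 164, 160 and 158 CPM in the control libraries. The libraries did not overlap, but the difference was small, with a log2 fold change of -0.24 (standard error 0.07, edgeR adjusted p = 0.0953). DESeq2 called Odf2 lower, together with Nin and Cep192, and DESeq2 called 7.96% of the genes it tested. Cep170, which binds microtubules at the subdistal appendages, had 495, 544 and 517 CPM with Insm1 against 469, 470 and 481 CPM in control libraries. These groups did not overlap either, and the log2 fold change was 0.13 (edgeR adjusted p = 0.261).

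Akna encodes a subdistal appendage protein that is known to organise microtubules at the centrosome in the subventricular zone of the mouse cortex and to promote the departure of cells from the ventricular surface. It had 99.0, 74.1 and 87.6 CPM in the Insm1 libraries, against 70.2, 103 and 73.0 CPM in the control libraries. The groups overlapped fully, with control library 2 the highest of all 6. The log2 fold change was 0.08 with a 95% interval from -0.26 to 0.43 (edgeR adjusted p = 0.858), so a change of Akna as large as that of Nin lies outside the interval. Ninl, the ninein-like protein, had 37.4, 48.7 and 34.6 CPM with Insm1 against 39.0, 40.1 and 43.7 CPM in control libraries, and its log2 fold change was -0.02 with an interval from -0.32 to 0.27. Its exons overlap those of a gene on the same strand, so some of these counts may not be its own.

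The remaining appendage genes had log2 fold changes between -0.13 and 0.05. Cntrl, or centriolin, had a mean of 54.0 ± 5.44 CPM in the Insm1 libraries and 52.2 ± 8.07 CPM in the control libraries (SD, n = 3 each). Cep89 lay furthest from 0 of these, with 25.1 ± 4.92 CPM with Insm1 and 27.4 ± 5.94 CPM in control libraries (SD, n = 3 each). The distal appendage genes Cep164 and Cep83, whose products dock the mother centriole to the membrane, were about as close as Cntrl. Cep164 had 25.3 ± 2.56 CPM with Insm1 and 24.8 ± 0.927 CPM in control libraries, and Cep83 had 33.9 ± 1.58 CPM with Insm1 and 32.9 ± 1.37 CPM in control libraries (SD, n = 3 each). Cep128, which joins subdistal appendages to the centriole, had 24.0 ± 6.01 CPM with Insm1 and 23.3 ± 2.99 CPM in control libraries (SD, n = 3 each).

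**Figure D2:**
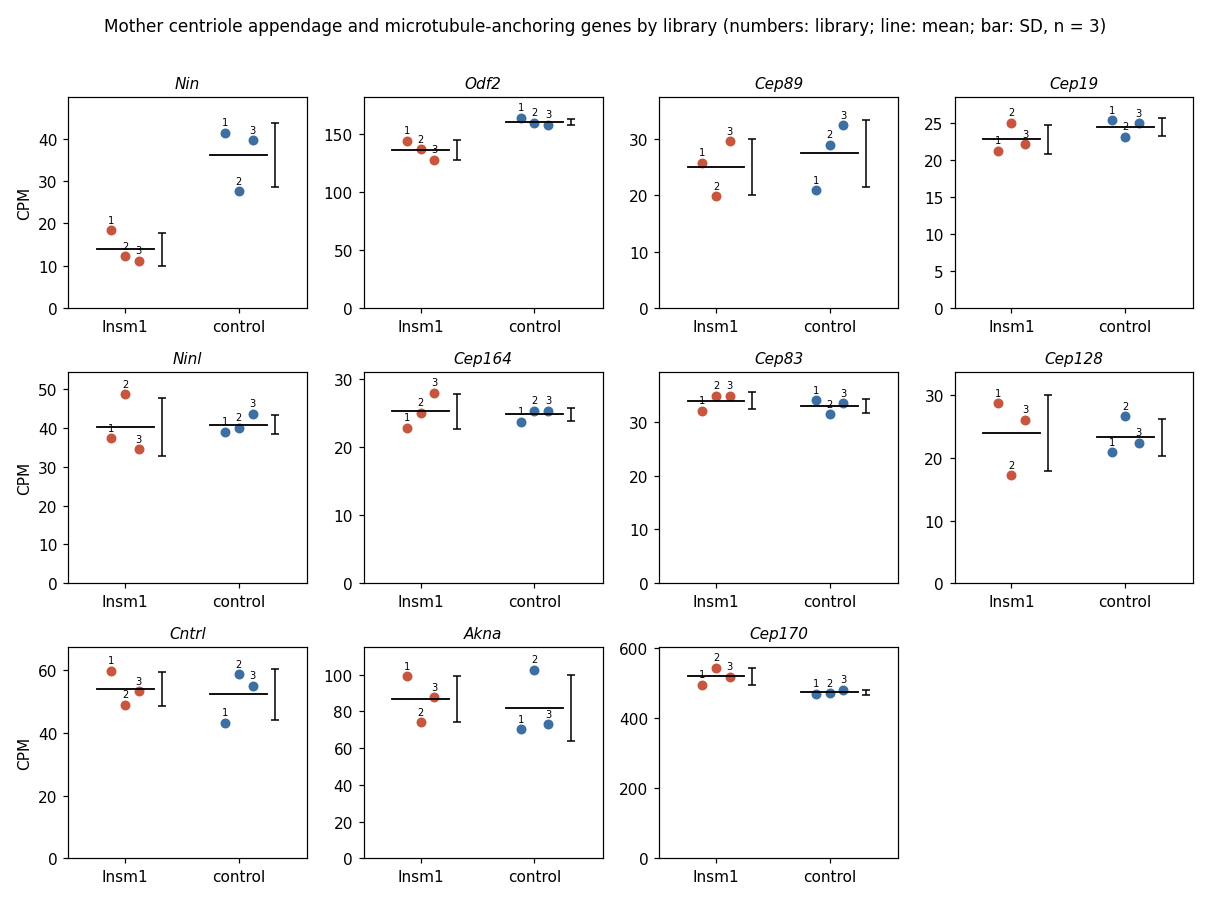
CPM of the 11 genes of mother centriole appendages and microtubule anchoring in each library, Insm1 left of control; numbers beside the points are library numbers, lines are means and bars are SDs (n = 3). Nin separates the groups most in fold, from 11.2 to 18.4 CPM with Insm1 and from 27.6 to 41.3 CPM in control libraries.

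The class of pericentriolar material and spindle pole genes had 9 tested members and no call, with log2 fold changes from -0.36 to 0.19. Cep192, a scaffold that recruits pericentriolar material and mitotic kinases, had 46.2, 41.2 and 41.9 CPM in the Insm1 libraries, against 54.6, 61.8 and 49.2 CPM in the control libraries. The libraries did not overlap, and the log2 fold change was -0.36 (standard error 0.11, edgeR adjusted p = 0.107). Akap9, a large anchoring protein of the centrosome and Golgi, had 396, 438 and 441 CPM with Insm1 against 372, 386 and 363 CPM in control libraries. These also stood apart, at a log2 fold change of 0.19 (edgeR adjusted p = 0.141). The exons of Akap9 overlap those of a gene on the opposite strand by 166 bases.

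Pcnt, or pericentrin, and Cdk5rap2 anchor the gamma-tubulin rings from which microtubules grow. Pcnt had a mean of 96.0 ± 8.07 CPM in the Insm1 libraries and 84.4 ± 8.81 CPM in the control libraries, and Cdk5rap2 had 121 ± 13.6 CPM with Insm1 and 117 ± 13.4 CPM in control libraries (SD, n = 3 each). In both the groups overlapped. Aspm and Wdr62 act at the spindle poles of dividing progenitors. Aspm had 111, 74.2 and 113 CPM with Insm1 against 116, 125 and 119 CPM in control libraries, where the low value of Insm1 library 2 widens the spread, and edgeR's adjusted p was 0.375. Wdr62 had 22.7, 23.1 and 23.5 CPM with Insm1 against 22.4, 36.5 and 25.7 CPM in control libraries, and the groups overlapped.

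No gene of centriole assembly and length was called among 14, and the log2 fold changes ran from -0.22 to 0.25. Cep120, which helps new centrioles to elongate, had 114, 127 and 136 CPM in the Insm1 libraries, against 108, 107 and 102 CPM in the control libraries. The groups did not overlap, and the log2 fold change was 0.25 (standard error 0.08, edgeR adjusted p = 0.133). Cep76, which limits centriole duplication in human cells, had 56.6, 63.1 and 58.4 CPM with Insm1 against 70.4, 67.5 and 69.2 CPM in control libraries. Here too the groups stood apart, with a log2 fold change of -0.22 (edgeR adjusted p = 0.194).

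Among the genes that build the cartwheel and the first centriole wall, Sass6 and Cenpj varied little within a group. Sass6 had 41.4 ± 2.23 CPM with Insm1 and 41.0 ± 4.15 CPM in control libraries, and Cenpj had 53.7 ± 3.55 CPM with Insm1 and 48.0 ± 3.91 CPM in control libraries (SD, n = 3 each). Stil, which works with both, varied more, with 58.7, 39.0 and 43.2 CPM in the Insm1 libraries and 46.1, 61.2 and 50.7 CPM in the control libraries. Their groups overlapped. A fixed list of 9 genes known as causes of human microcephaly held Aspm, Wdr62, Cdk5rap2, Cenpj, Stil, Sass6, Cep135, Cep152 and Cep63. None of these 9 was called, and their log2 fold changes ran from -0.29 to 0.16. The called gene Nin was not on this list, and neither was Pcnt.

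The linker between centrioles was represented by Cep250, Cep68 and Cep70, with log2 fold changes from 0.03 to 0.07 and no call. Cep68 had 63.3 ± 3.62 CPM with Insm1 and 61.9 ± 10.8 CPM in control libraries (SD, n = 3 each). Among the 4 genes of the centriolar satellites, granules that deliver proteins to the centrosome, log2 fold changes ran from -0.12 to 0.11. Pcm1, the scaffold of the satellites, had 200, 223 and 203 CPM in the Insm1 libraries, against 238, 222 and 222 CPM in the control libraries. The groups overlapped through Insm1 library 2, and edgeR's adjusted p was 0.390. Ofd1 had 18.7 ± 1.58 CPM with Insm1 and 17.9 ± 2.26 CPM in control libraries (SD, n = 3 each). Cep55, which recruits the machinery for the final cut between daughter cells, had 33.7, 18.5 and 27.2 CPM with Insm1 against 20.3, 30.2 and 29.1 CPM in control libraries, with overlapping groups and a log2 fold change of -0.01.

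The transition zone and ciliary membrane class had 9 tested members and no call, with log2 fold changes from -0.39 to 0.23. Cep290, a link between the axoneme and the membrane in the transition zone, had 23.7, 27.1 and 20.3 CPM with Insm1 against 24.8, 35.4 and 28.5 CPM in control libraries, and the groups overlapped. Tctn3 had 7.50, 7.42 and 8.50 CPM with Insm1 against 13.1, 7.07 and 10.5 CPM in control libraries, where control library 2 lay below all Insm1 libraries. Rpgrip1l, a transition zone scaffold, had 18.9, 18.1 and 9.89 CPM with Insm1 against 16.4, 7.66 and 16.0 CPM in control libraries. Each group of Rpgrip1l held 1 low library, and its interval, from -0.50 to 0.95 on the log2 scale, is among the wide ones.

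Arl13b, a small GTPase of the ciliary membrane that is often used to stain cilia, had 27.5 ± 1.82 CPM with Insm1 and 27.1 ± 3.51 CPM in control libraries (SD, n = 3 each). Its interval, from -0.26 to 0.31, leaves out changes of 1.5-fold. Mks1 had 5.70 ± 1.18 CPM with Insm1 and 5.65 ± 0.530 CPM in control libraries, and Tctn1, the lowest gene of the set per exon length, had 1.57 ± 0.485 CPM with Insm1 and 1.64 ± 0.451 CPM in control libraries (SD, n = 3 each). Cep78 had 68.4 ± 4.21 CPM with Insm1 and 65.0 ± 4.14 CPM in control libraries (SD, n = 3 each).

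Intraflagellar transport was the only one of the larger classes in which every interval lay within 1.5-fold. All 14 genes had a 95% interval within 1.5-fold, none was called, and the log2 fold changes ran from -0.25 to 0.18. Ift74, which helps to carry tubulin, had 49.3, 53.9 and 54.3 CPM in the Insm1 libraries, against 70.8, 53.6 and 62.9 CPM in the control libraries. The groups overlapped through control library 2, and edgeR's adjusted p was 0.278. Ift43, a subunit of the complex for return transport, had 29.9, 29.9 and 34.4 CPM with Insm1 against 26.6, 28.3 and 28.2 CPM in control libraries. These groups did not overlap, at a log2 fold change of 0.18 (edgeR adjusted p = 0.448). Ift20, which works between the Golgi and the cilium, had 28.0 ± 2.64 CPM with Insm1 and 26.5 ± 3.43 CPM in control libraries (SD, n = 3 each).

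In the class of the BBSome and its chaperonins, 6 of 7 log2 fold changes were below 0, where 51.9% of all tested genes were, with a median of -0.32 and a range from -0.89 to 0.33, and none was called. Bbs4, a BBSome subunit that also sits on the centriolar satellites and was counted there, had a log2 fold change of 0.05, and with it 6 of 8 were below 0 with a median of -0.21. Of the 7 genes, 2 had an interval within 1.5-fold. Bbs1, a BBSome subunit, had 20.3, 22.0 and 18.8 CPM in the Insm1 libraries, against 26.5, 25.2 and 26.4 CPM in the control libraries. The groups did not overlap, and the log2 fold change was -0.35 (standard error 0.11, edgeR adjusted p = 0.139). Bbs9, another subunit, had 18.0, 26.3 and 20.5 CPM with Insm1 against 18.6, 18.2 and 14.7 CPM in control libraries (edgeR adjusted p = 0.363). The widest interval of the set was that of Bbs10, a chaperonin-like protein for BBSome assembly, from -1.94 to 0.17, at 2.29, 1.07 and 3.07 CPM with Insm1 against 1.91, 4.22 and 5.78 CPM in control libraries.

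Cep112 and Cep95 were put in no class. Cep112 had 9.47, 6.26 and 6.33 CPM in the Insm1 libraries, against 11.4, 8.18 and 11.2 CPM in the control libraries, and the groups overlapped. Its log2 fold change was -0.48 with an interval from -0.99 to 0.03. Cep95 had 10.8 ± 1.47 CPM with Insm1 and 11.9 ± 2.27 CPM in control libraries (SD, n = 3 each).

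Levels of different genes were compared per length, as counts divided by annotated exon length and scaled to the same total per library. The deposited TPM values were not used for this, because they follow the whole gene span, introns included. On the exon-length scale the 74 genes had a median level of 19.0 over the 6 libraries, close to the median of 20.8 of all tested genes with an annotated length. Pcm1 was highest at 105, followed by Cep170 at 98.4, Ift74 at 77.7, Cep78 at 77.0 and Akap9 at 66.9, and Tctn1 was lowest at 0.695. The first 2 did not keep their order: Cep170 lay above Pcm1 in each Insm1 library, by at most 101 against 96.0, and Pcm1 above Cep170 in each control library, by at most 116 against 94.6. By class the median level was 34.0 for satellite genes, 26.6 for pericentriolar material and spindle pole, 26.2 for intraflagellar transport, 23.5 for centriole assembly, 18.7 for appendages, 10.8 for the BBSome class and 8.89 for the transition zone class.

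Nin was among the less abundant genes on this scale even in control cells. Its level was 3.81, 2.53 and 2.31 in the Insm1 libraries, against 8.84, 5.83 and 8.67 in the control libraries, and it ranked 72 of 74 by its mean in Insm1 libraries and 63 of 74 by its mean in control libraries. Odf2, at 48.5 ± 2.97 with Insm1 and 59.2 ± 1.12 in control libraries, and Akna, at 53.1 ± 7.77 with Insm1 and 51.8 ± 10.6 in control libraries (SD, n = 3 each), were several times as abundant.

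**Figure D3:**
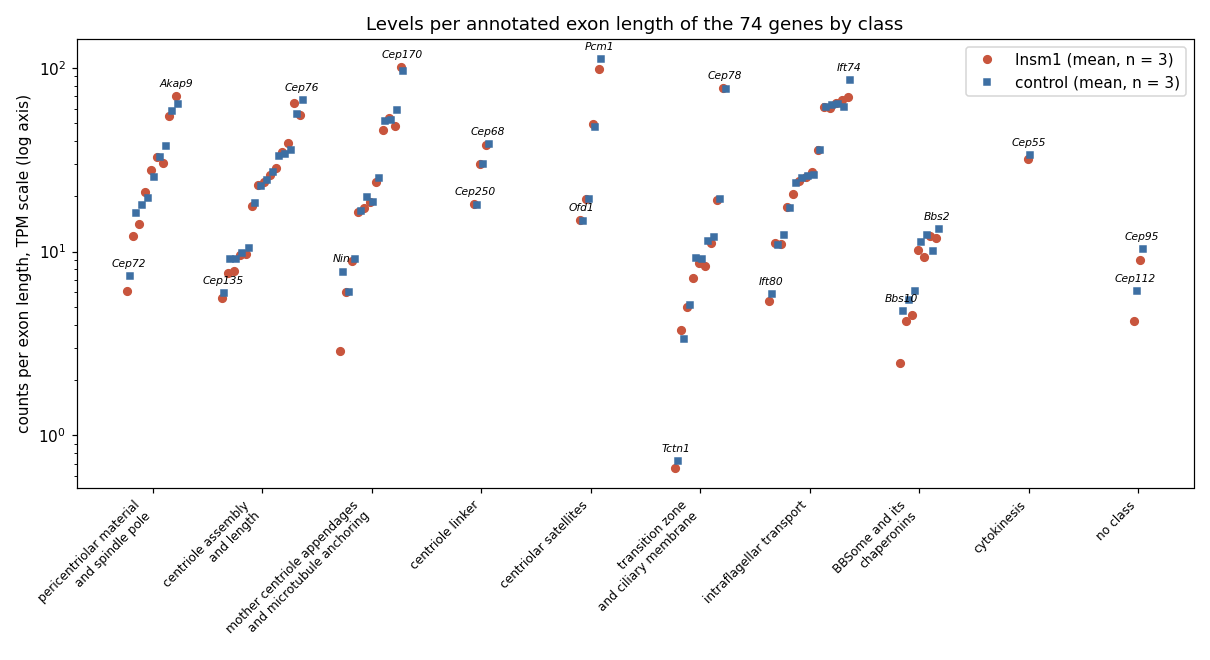
Mean level of each gene per annotated exon length on a TPM scale (log axis), by class, in Insm1 libraries (circles) and control libraries (squares), n = 3 each. The paired symbols lie close together for most genes, and Nin shows the widest gap among the appendage genes, 2.88 with Insm1 and 7.78 in control libraries.

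The choice by symbol used no promoter sequence, so motif shares describe the set further. RFX factors are transcription factors of cilium genes that bind an element called the X-box, of which GTTGCCA is the core on 1 side. These 7 letters, on either strand, were found in 22.2% of 27 genes of the transition zone, intraflagellar transport and BBSome classes, in 5.26% of 38 other genes of the set and in 5.02% of all genes in the RefSeq table. The sites are printed below on the strand of the gene because these 6 genes make up that 22.2%, with the match in capitals, each with its place on GRCm38.p6:

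Cep41, chr6:30693854-30693883, minus strand: cgcgttgccctTGGCAACcattgagcagct
Mks1, chr11:87853180-87853209, plus strand: ccagcgtctccGTTGCCAggggaacgaggc
Ift88, chr14:57424080-57424109, plus strand: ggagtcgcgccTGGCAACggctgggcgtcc
Ift27, chr15:78174072-78174101, minus strand: ggttgatgatgGTTGCCAggagcctgtttg
Bbs1, chr19:4906608-4906637, minus strand: tggctgagctgGTTGCCAaggcgacgcctg
Tctn3, chr19:40612353-40612382, minus strand: ggctcccagcgGTTGCCAggtaacgggaac

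The other 2 genes with these letters were Cep112 and Cep128. None of the 8 was called, and their log2 fold changes lay between -0.48 and 0.09. The core of the cell cycle homology region, TTTGAA, showed the opposite distribution. It was found in 3.70% of the ciliary classes and in 36.8% of the other genes of the set, Aspm, Cdk5rap2, Cep55, Odf2 and Nin among them, where 20.2% of all genes hold it. An E2F core, TTTGGCG or TTTCCCG, was found in 23.1% of the set and in 5.55% of all genes. The E-box CAGGTG was found in 13.8% of the set and in 22.6% of all genes. Promoters rich in G and C hold some of these letters more often, and base composition was not matched.

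The set was extended by 83 further genes of the same structures that the symbol rule does not take, of which 80 were tested. Wdr19 was called lower and no other gene was called, which is 1.25% against 3.35% of all tested genes. Of the 80 log2 fold changes 50 were below 0, where 51.9% of all tested genes were. Their median was -0.05, against -0.01 over all tested genes. In 14 of the 80 the groups did not overlap, with 13 lower and 1 higher with Insm1. Over all tested genes these shares were 11.8% lower and 10.4% higher. Wdr19 encodes a subunit of the transport complex that returns cargo from the tip of the cilium. It had 5.69, 4.83 and 6.59 CPM in the Insm1 libraries, against 14.6, 9.48 and 9.73 CPM in the control libraries. The groups did not overlap, and the log2 fold change was -0.98 (standard error 0.23, edgeR adjusted p = 0.0480). That call was kept without control library 2 (edgeR's adjusted p of 0.0325) and lost in the 5 other fits without 1 library, where the adjusted p ran up to 0.173.

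The members of the set that work beside Wdr19 in the same complex were not called. The log2 fold change was 0.18 for Ift43, 0.03 for Ift140 and -0.11 for Ift122. Of the subunits outside the set, Wdr35 had a log2 fold change of -0.29 (edgeR adjusted p = 0.252), with groups that did not overlap, and Ttc21b one of -0.09 (edgeR adjusted p = 0.808). Dync2h1, the motor chain that drives return transport, had 57.6, 59.2 and 44.9 CPM with Insm1 against 78.0, 69.3 and 69.1 CPM in control libraries, with groups that did not overlap (edgeR adjusted p = 0.0838). The RFX factors pointed in different directions without a call. Rfx3 had 99.1, 98.1 and 92.4 CPM with Insm1 against 76.5, 76.6 and 85.0 CPM in control libraries, and Rfx4 had 8.11, 12.1 and 10.6 CPM with Insm1 against 18.9, 13.0 and 16.8 CPM in control libraries. In both the groups did not overlap, with adjusted p-values of 0.0834 for Rfx3 and 0.111 for Rfx4 in edgeR's test. Wdr35, Ttc21b, Dync2h1, Rfx3 and Rfx4 were picked for mention after their values were seen, the last 3 since DESeq2 called them.

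Cell type markers moved between the groups beside these genes. The marker lists were chosen with earlier results of these data known, so the counts of called markers may partly reflect that choice. Of 12 markers of apical progenitors, the cells whose centrosome lies at the ventricular surface, 7 fell and none rose, Id4 and Slc1a3 among them. Their summed level was 3397, 3150 and 2715 CPM in the Insm1 libraries, against 4584, 4372 and 4023 CPM in the control libraries, with log2 fold changes from -1.19 to -0.10, and the groups did not overlap. Of 10 projection neuron markers 4 rose and none fell, with log2 fold changes from -1.01 to 0.58 and sums from 8502 to 9190 CPM with Insm1 and from 7365 to 7692 CPM in control libraries. The lowest of these was Mapt, the microtubule-associated protein tau, with 39.1, 37.0 and 52.2 CPM with Insm1 against 109, 58.3 and 91.1 CPM in control libraries (edgeR adjusted p = 0.0592), and Sox5 was at -0.24 (edgeR adjusted p = 0.164). Of 8 basal progenitor markers 3 were called higher and none lower. The 5 others had log2 fold changes below 0, and the range over the list was from -0.41 to 0.96. The sums overlapped, from 1733 to 2010 CPM with Insm1 and from 1587 to 1824 CPM in control libraries. In such bulk libraries fewer cells of a type and less RNA per cell cannot be told apart, and the part that the apical progenitor markers have in the Nin difference was not tested.

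Of 22 markers of G2 and mitosis none was called, with sums of 4663, 3259 and 4076 CPM in the Insm1 libraries and 3687, 4829 and 4046 CPM in the control libraries. Insm1 library 2 and control library 1 were the low ones, and Aspm, Stil and Cep55 were also lowest in these libraries of their groups. Of 20 S phase markers 3 were called lower and 1 higher. Their log2 fold changes were below 0 in 19 of the 20, where 51.9% of all tested genes were. The median was -0.29 and the range was from -0.58 to 0.38. The sums were from 2762 to 3263 CPM with Insm1 and from 3184 to 3837 CPM in control libraries. Multiciliated cell markers were low, at sums from 21.8 to 26.7 CPM with Insm1 and from 27.6 to 40.0 CPM in control libraries over 12 genes. These sums did not overlap. Of the 12 genes 6 could be tested, none was called and Tmem212 was at 0 in every library. In 5 of the 6 the groups did not overlap, with 4 lower and 1 higher with Insm1. Over all tested genes these shares were 11.8% lower and 10.4% higher.

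In red blood cell and Cajal-Retzius markers control library 2 lay near the Insm1 libraries, and control libraries 1 and 3 stood apart. Red blood cell markers summed to 4891, 4831 and 3497 CPM in the Insm1 libraries, against 715, 5258 and 307 CPM in the control libraries. Cajal-Retzius markers summed to 47.9, 37.8 and 32.4 CPM with Insm1 against 126, 31.4 and 123 CPM in control libraries, and microglia markers summed to 10.9, 38.1 and 16.5 CPM with Insm1 against 1.33, 72.5 and 8.52 CPM in control libraries. Control library 2 had the lowest Nin value of its group. Nin was called without it, and also without control library 1 (edgeR adjusted p = 0.0401), but not without control library 3. No gene of these lists was called, and their part in the differences above was not tested. Markers of interneurons stayed at or below 16.1 CPM in sum in every library, those of the meninges at or below 3.37 CPM, those of endothelium and pericytes at or below 2.49 CPM and those of the choroid plexus at or below 2.27 CPM.

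**Figure D4:**
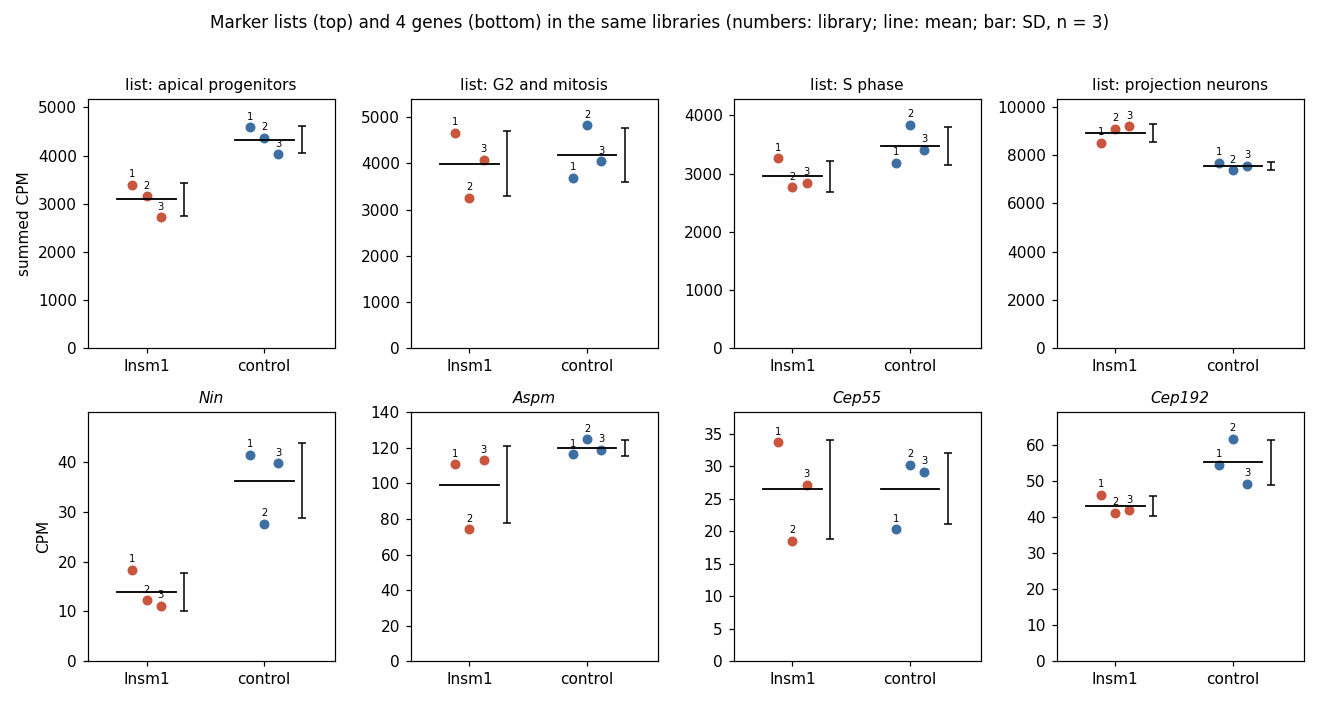
Level in CPM of Nin, other genes of the set and summed marker lists in each library, Insm1 left of control, with library numbers beside the points, means as lines and SDs as bars (n = 3). Nin and the apical progenitor list are lower in all 3 Insm1 libraries, with list sums from 2715 to 3397 CPM against 4023 to 4584 CPM in control libraries.

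Of the 74 genes, 13 share exon bases with another gene, 12 of them on the opposite strand, Akap9, Cep290, Ofd1, Sass6, Tctn1, Wdr62 and Bbs4 among them. The shared bases make up between 0.474% and 19.0% of a gene's exon bases, with a median of 2.94%, and Tctn1 has the highest share. The library preparation marks no strand, so reads from those bases cannot be assigned to 1 gene of such a pair. Nin, Odf2, Akna and Cep192 are free of such overlaps.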

How the data were processed

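Per the labels' protocols, poly-dT priming with template switching gave the cDNA, which went through 12 cycles of amplification and 15 more as a library before sequencing of 75 bases from 1 end. Such libraries mark no strand and carry no molecular identifiers. The submitters' processing notes name GRCm38 with the tools TopHat2 2.0.13, Bowtie and bcl2fastq. How reads were counted, with which annotation and strand setting, the sources used here do not say. The authors deposited whole-number counts per gene, with library totals from 30017645 to 31645135, and TPM values, which 333 genes lack.

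Genes kept by edgeR's filterByExpr were scaled by TMM and fitted to group alone with the robust quasi-likelihood test of edgeR 4.0.16 (R 4.3.3), adjusted by Benjamini-Hochberg over all 13560 tested genes. CPM is TMM-scaled, ± is an SD, and intervals cover the spread between libraries. Levels per length used union exons of GENCODE M21, and promoters came from RefSeq. Pairs of libraries of a group differed by more than counting error, with a chi-square per degree of freedom from 12.4 to 31.1.

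The genes, classes and marker lists were chosen with earlier results of these data known. Genes named with values are those the rule lists by name, called genes, the 6 largest rises and falls above 5 CPM, the most abundant of each class by deposited TPM, and examples chosen after their values were seen. The alternatives tried were DESeq2 1.42.0, scaling by RLE or upper quartile, limma 3.58.1 on voom weights and on log TPM, 2 other filters, a replicate block, a fit that is not robust and each library left out.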

Additional observations from a re-analysis of the deposited data

How the results depend on the processing

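Over 36 single genes and all alternatives, 516 of 575 fold changes kept their direction and their side of the threshold, 13 lost a call, 2 gained one and 44 changed direction, none of these in a called gene. The number of genes called over the whole table was 1016 in DESeq2, 60 in limma on log2(TPM + 1), 64 on log2(TPM + 0.1) and from 116 to 645 with 1 library left out. Members called lower were 3 in DESeq2 (Cep192, Nin and Odf2), 0 in both limma fits on TPM and from 0 to 1 with 1 library left out. At an unadjusted p below 0.05 both limma fits on TPM held 6 members. In edgeR 0 members were higher, with 3 at an unadjusted p below 0.05. Related genes called were 4 in DESeq2, 0 in limma-voom, in both TPM fits, with the replicate block and in the fit that is not robust, and from 0 to 2 with 1 library left out. The median of the set was -0.080 on log2(TPM + 0.1) and from -0.03 to 0.02 with 1 library left out. With 1 library left out, the median of all tested genes ran from -0.013 to -0.00084. The TPM fit had no TMM scaling, so its set median alone does not show a fall of the set.

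The replicate numbers showed no sign of a pairing, since deviations of same-numbered libraries correlated at -0.003, -0.022 and -0.076. Values this near 0 cannot settle whether libraries were prepared in pairs, which the sources used here do not say. With the number as a replicate block edgeR called 331 genes, 299 of them among the 454, kept Nin at an adjusted p of 0.0103 and lost Wdr19 at 0.0797. None of the 6 libraries correlated best with its own number.

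Single genes, most of them near 0, changed direction in some fits. Rpgrip1l did so too, although its log2 fold change of 0.23 in the main fit was among the 6 largest rises. Cep55 was 0.0041 with no filter. Mks1 was -0.0042 in limma-voom, -0.0025 with the block, and -0.055 and -0.068 in limma on log2(TPM + 1) and log2(TPM + 0.1). In these 2 TPM fits Arl13b was -0.029 and -0.034, Cdk5rap2 -0.015 and -0.018, Cep68 -0.020 and -0.020, Cntrl -0.010 and -0.011, and Sass6 -0.044 and -0.048. Both TPM fits took the deposited values without TMM scaling, so their fold changes rest on another scaling between libraries. With 1 library left out the range was -0.02 to 0.28 for Akna, -0.069 to 0.10 for Arl13b, -0.03 to 0.14 for Cdk5rap2, -0.22 to 0.20 for Cep55, -0.13 to 0.035 for Cep57, -0.080 to 0.18 for Cep68, -0.064 to 0.14 for Cntrl, -0.013 to 0.15 for Ift20, -0.14 to 0.16 for Mks1, -0.19 to 0.073 for Ninl, -0.0075 to 0.18 for Ofd1, -0.051 to 0.47 for Rpgrip1l, -0.060 to 0.081 for Sass6 and -0.25 to 0.20 for Tctn1. The cause was not tested. In the last 200 bases of the promoters the X-box core was in 12.3% of the set and 3.69% of all genes, the E2F core in 21.5% and 3.96%, TTTGAA in 21.5% and 12.8%, GGGGGC in 35.4% and 24.7%, and CAGGTG in 9.23% and 15.7%.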

Other observations

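The deposited TPM values follow the span of the gene, introns included. Among genes with at least 500 counts in a library, the ratio of count to TPM was proportional to the gene span within 1% in 95.6% to 95.7% of genes, and to the length of the annotated exons in 0.682% to 0.871%. The order of genes by level differs between these scales. At a level of 10 or more there were 54 of the 74 genes on the exon-length scale and 25 in the deposited TPM. Bbs9, with a span of 412566 bases and 6243 exon bases, ranked 50 of 74 by exon length and 73 by deposited TPM, and Ift22, with 7255 and 3608 bases, ranked 34 and 6.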
